A study of Mus musculus with 12 samples.

Results

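The regions described here are 330 stretches of chromatin, 2.06% of the 16028 union regions of the series, at which an ATAC-seq peak was called after 72 h of estradiol withdrawal and after 120 h, but in none of the lists for continuous estradiol, 24 h or 40 h of withdrawal. They were chosen by these calls alone, with or without a call at 56 h, and are called late-gained regions. ATAC-seq marks open chromatin by the sites at which a transposase can cut nuclear DNA. The cells were ER-Hoxa9-Lys-GFP cells of the mouse strain C57BL/6, grown in medium with stem cell factor. In these myeloid progenitors Hoxa9 is joined to an estrogen receptor domain and is active while estradiol (E2) is present, and GFP reports lysozyme expression.

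The 12 libraries formed 6 groups of 2, and 1 peak list stood for each group. One group stayed in E2 (0 h of withdrawal), 4 groups lost E2 for 24, 40, 56 or 72 h and then received it again for 96, 80, 64 or 48 h, and the last group spent 120 h without E2. All groups carried the ER-Hoxa9 fusion and the reporter, and the labels named a single cell line. The peaks listed for 72 h were thus measured after 48 h back in E2. Time without E2 and time of add-back changed together, so the 2 durations cannot be told apart. The lists held positions only, with no score, count or depth, and after cleaning they contained 7987 to 13165 peaks each. The labels did not say how the pair of libraries was combined or whether they came from separate cultures, so no spread between replicates could be given. Intervals below are 95% intervals for counting error over regions, which were taken as independent. Of 17 regions at the progenitor markers Cd34, Kit, Flt3 and Meis1, 16, 12, 9, 5, 3 and 3 were called at 0, 24, 40, 56, 72 and 120 h. Regions at 6 neutrophil markers were called 2, 2, 1, 0, 0 and 0 times, with Elane, Camp, Cxcr2 and Ly6g in no region, and at 4 monocyte and macrophage markers 2, 2, 1, 0, 1 and 2 times. Erythroid, lymphoid and mast cell markers had 1 region for each cell type, all 3 of them called at 0 h and none at 120 h. Open chromatin at a gene does not measure its expression.

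Hoxa9 is a homeodomain transcription factor that keeps myeloid progenitors dividing and immature. When it is inactivated, progenitors of this kind mature toward granulocytes and macrophages, which arm themselves with granule proteins, an oxidase, pattern receptors and chemokine receptors. Open chromatin in such cells lies at promoters and at distal enhancers, and the factors PU.1, C/EBP, RUNX, AP-1 and IRF are known to bind many myeloid enhancers and promoters.

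Among genes of the myeloid and cell cycle lists used below, 5 had a gene start with a promoter window inside a late-gained region. These windows (250 bases before to 50 after the start, RefSeq, GRCm38.p6) are shown because they place the gained peak on a known promoter. The region of Hp, which was called at 56 h, also overlapped a boundary of its gene, but no Hp window was among those overlapped. Each is given 5′ to 3′ on the strand of its gene. Capitals mark every match, on either strand, to GAGGAA (PU.1 and other ETS factors), TTGCNNAA (C/EBP), TGTGGT (RUNX), TGANTCA (AP-1), GAAANNGAA (IRF), GGGCGG (the GC box of SP and KLF factors) or TGATTNAT (HOX with PBX). In Csf3r (chr4:126024409-126024708, plus strand), Ms4a3 (chr19:11640802-11641101, minus strand), Ly6c2 (chr15:75111922-75112221, minus strand), Cd68 (chr11:69666121-69666420, minus strand) and Cdkn2c (chr4:109666707-109667006, minus strand) these windows read as follows.
Csf3r: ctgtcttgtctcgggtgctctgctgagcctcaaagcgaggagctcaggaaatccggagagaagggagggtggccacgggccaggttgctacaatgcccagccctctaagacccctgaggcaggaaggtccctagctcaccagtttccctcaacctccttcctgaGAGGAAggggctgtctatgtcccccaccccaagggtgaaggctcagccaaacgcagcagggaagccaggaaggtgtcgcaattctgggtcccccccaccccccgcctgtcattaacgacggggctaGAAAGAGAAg
Ms4a3: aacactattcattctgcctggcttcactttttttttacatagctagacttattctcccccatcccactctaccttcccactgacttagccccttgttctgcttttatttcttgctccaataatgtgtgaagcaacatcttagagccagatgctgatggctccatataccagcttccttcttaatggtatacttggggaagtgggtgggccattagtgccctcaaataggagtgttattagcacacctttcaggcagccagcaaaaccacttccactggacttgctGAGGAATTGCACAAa
Ly6c2: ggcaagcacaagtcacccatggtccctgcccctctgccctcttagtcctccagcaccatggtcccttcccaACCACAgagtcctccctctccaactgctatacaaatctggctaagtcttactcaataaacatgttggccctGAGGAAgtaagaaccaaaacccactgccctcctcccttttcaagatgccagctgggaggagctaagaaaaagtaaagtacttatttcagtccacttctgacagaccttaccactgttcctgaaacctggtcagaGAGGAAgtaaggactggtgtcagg
Cd68: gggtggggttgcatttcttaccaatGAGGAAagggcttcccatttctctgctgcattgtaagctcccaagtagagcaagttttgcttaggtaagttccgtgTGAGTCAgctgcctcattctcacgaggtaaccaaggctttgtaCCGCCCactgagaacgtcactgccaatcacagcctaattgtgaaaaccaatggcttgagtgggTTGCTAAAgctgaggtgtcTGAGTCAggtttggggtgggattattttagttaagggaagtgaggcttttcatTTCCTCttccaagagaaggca
Cdkn2c: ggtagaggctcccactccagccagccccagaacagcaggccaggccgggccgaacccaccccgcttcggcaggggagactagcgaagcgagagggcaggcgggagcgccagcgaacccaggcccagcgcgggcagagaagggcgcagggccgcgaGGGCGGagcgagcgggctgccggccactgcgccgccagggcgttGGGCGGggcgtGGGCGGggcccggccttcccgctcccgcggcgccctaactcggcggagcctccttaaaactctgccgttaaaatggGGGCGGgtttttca
The first 4 windows each hold at least 1 GAGGAA, and their regions were called at 72 h and 120 h but not at 56 h. In Ms4a3 the GAGGAA runs directly into a C/EBP match, with no overlap. The window of Cdkn2c, whose region was already called at 56 h, holds 4 GC boxes and no other match. A match is a run of letters and not a measured binding site.

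The genes of granulocyte precursors came first among the lists. Csf3r encodes the receptor for G-CSF, the growth factor of neutrophils, and its late-gained region (chr4:126024507-126024944) covered an annotated start of the gene and one of Gm32908. The peak there was 438 bases wide at 120 h and 358 bases at 72 h, with no peak in the other 4 lists. Ms4a3, a membrane protein of granulocyte and monocyte precursors, had its start inside chr19:11640568-11641033. Its peak measured 202 bases at 120 h and 464 bases at 72 h, and the nearest peak of an earlier list was 129090 bases away. Fcnb, a granule lectin, had a region 7030 bases upstream of the gene, 514 bases wide at 120 h and 463 bases at 72 h. Hp, which encodes the hemoglobin-binding protein haptoglobin, was the 1 gene of these 4 whose region was called at 56 h too, with widths of 398, 480 and 411 bases at 56, 72 and 120 h. Together 4 of the 15 genes of the primary granule and promyelocyte list that had any region held a late-gained one. Across all protein-coding genes with any region the share was 2.77%, or 290 of 10453, and across all 21900 genes of the annotation it was 1.32%. The lists were chosen with earlier results of these data known, so their shares are descriptions and are not tested.

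None of the 30 late neutrophil genes held a late-gained region. The list had 16 genes with a region of some kind, and 9 of those held a region called at 120 h alone, which 3.67% of all genes with any region did. Genes of the monocyte and macrophage list were represented by Ly6c2, a surface antigen of inflammatory monocytes, and Cd68, a lysosomal glycoprotein abundant in macrophages, 2 of 17. Both regions lay over the gene start and both were absent at 56 h. The Ly6c2 peak (chr15:75111840-75112355) was 200 bases wide at 120 h and 516 bases at 72 h, the Cd68 peak (chr11:69666102-69666343) 242 bases at 120 h and 202 bases at 72 h. At Ly6c2 and Ms4a3, then, the peak after the full 120 h without E2 was the narrower of the pair.

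Genes that phagocytes use to sense and kill microbes held 5 late-gained regions, at 5 of 26 genes, none at a gene boundary. Tlr2 and Tlr6 encode receptors that pair with each other to recognise bacterial lipopeptides. The Tlr6 region, inside the gene at chr5:64960893-64961674, was 520, 600 and 782 bases wide at 56, 72 and 120 h. The Tlr2 region lay 3256 bases upstream and had peaks of 481 bases at 120 h and 437 bases at 72 h. Fgr, a Src-family kinase that acts downstream of integrins, had peaks of 442, 399 and 550 bases at 56, 72 and 120 h. Itgax, the integrin alpha X chain, had peaks of 296 bases at 120 h and 289 bases at 72 h. Of the 5 peaks of this list, 4 were wider at 120 h than at 72 h. A region called at 0 h and not at 120 h was held by 12 of the 26 genes, against 43.6% of all genes with any region. Tlr6 and Itgax were among them, and that of Tlr6, 1308 bases wide at 0 h, lay 501 bases from a boundary of the gene.

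The list for actin, adhesion and migration held the largest number of late-gained regions of the 16 lists, 8 regions at 6 of 33 genes. Of these regions 4 lay at Ssh2 and Pip5k1b, which had already been named in earlier results of these data, so the ranking is a description. Cxcr4 encodes the chemokine receptor that retains myeloid cells in the marrow. Its region, 17444 bases downstream at chr1:128570069-128570755, had peaks of 402, 524 and 609 bases at 56, 72 and 120 h. The region nearest to Ccr1, a receptor for inflammatory chemokines, was far wider, with peaks of 1140, 1115 and 942 bases, and lay 36389 bases from the gene. It covered an annotated start of another gene, Gm51701, and was assigned to Ccr1 by distance among protein-coding genes. Ssh2, a phosphatase that activates the actin-severing protein cofilin, had a region with peaks of 671 bases at 120 h and 566 bases at 72 h and another with 384 and 374 bases. Pip5k1b, a kinase that makes the membrane lipid that anchors actin regulators, likewise had 2 regions, with peaks of 741 bases at 120 h and 596 bases at 72 h and of 369 and 257 bases. None of these 4 regions was called at 56 h. The motor protein gene Myo1f had peaks of 387, 544 and 503 bases at 56, 72 and 120 h, and the formin gene Fmnl1 peaks of 367, 391 and 446 bases.

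Lysosome and endosome genes held 6 late-gained regions at 6 of 26 genes, and 5 of the 6 peaks were wider at 120 h than at 72 h. Their median width was 315 bases at 120 h and 250.5 bases at 72 h. Ctsd, the protease cathepsin D, had peaks of 311 bases at 120 h and 200 bases at 72 h. Lgmn, the protease legumain, had peaks of 297 bases at 120 h and 260 bases at 72 h. Scarb2, a membrane protein of lysosomes, had peaks of 235, 250 and 372 bases at 56, 72 and 120 h. Rab27a, a small GTPase that docks secretory granules, had peaks of 295, 371 and 447 bases.

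The other lists held 1 or 2 late-gained genes, or none. For lipid metabolism, 2 of 16 genes did. Abca1, which exports cholesterol, had peaks of 256 bases at 120 h and 296 bases at 72 h, and Acsl1, which activates fatty acids, 384 and 320 bases. Among myeloid transcription factors, 2 of 39 genes held one, Klf2 with 329 bases at 120 h and 218 bases at 72 h, and Ikzf1 with 406, 526 and 515 bases at 56, 72 and 120 h. For survival, 2 of 19 genes did. Mcl1, an anti-apoptotic protein on which neutrophils depend, had peaks of 406, 566 and 797 bases, and Pmaip1, a pro-apoptotic BH3-only protein, peaks of 457, 457 and 442 bases. Cell cycle genes contributed 2 of 27, the D-type cyclin Ccnd3 with 561, 575 and 579 bases and Cdkn2c, an inhibitor of cyclin D-dependent kinases, with 609, 816 and 610 bases. All 4 of those survival and cell cycle regions were called at 56 h, as were 39.1% of all late-gained regions. The progenitor list had 1 gene of 22, the cytokine receptor Flt3, with peaks of 431, 420 and 467 bases; 4 other regions of Flt3 were called in E2 and not at 120 h. Ccr3, the eotaxin receptor of eosinophils, was the 1 gene of 4 in the mast cell, basophil and eosinophil list, with 339, 359 and 398 bases. The interferon and antigen presentation list had 0 of 16, erythroid and megakaryocyte 0 of 8, lymphoid 0 of 7 and housekeeping genes 0 of 19. Over every list, 33 of 297 genes with a region (11.1%) held 35 late-gained regions, of which 18 were called at 56 h, 7 lay at a gene boundary and 24 were wider at 120 h than at 72 h. Of the same 297 genes, 35 held a region called at 120 h alone, against 3.67% of all genes with any region. A region absent at 0 h and called from 40 h on was held by 16, against 4.36%. A region called at 0 h and not at 120 h was held by 162, against 43.6%. The raised share was thus not particular to late-gained regions.

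**Figure D1:**
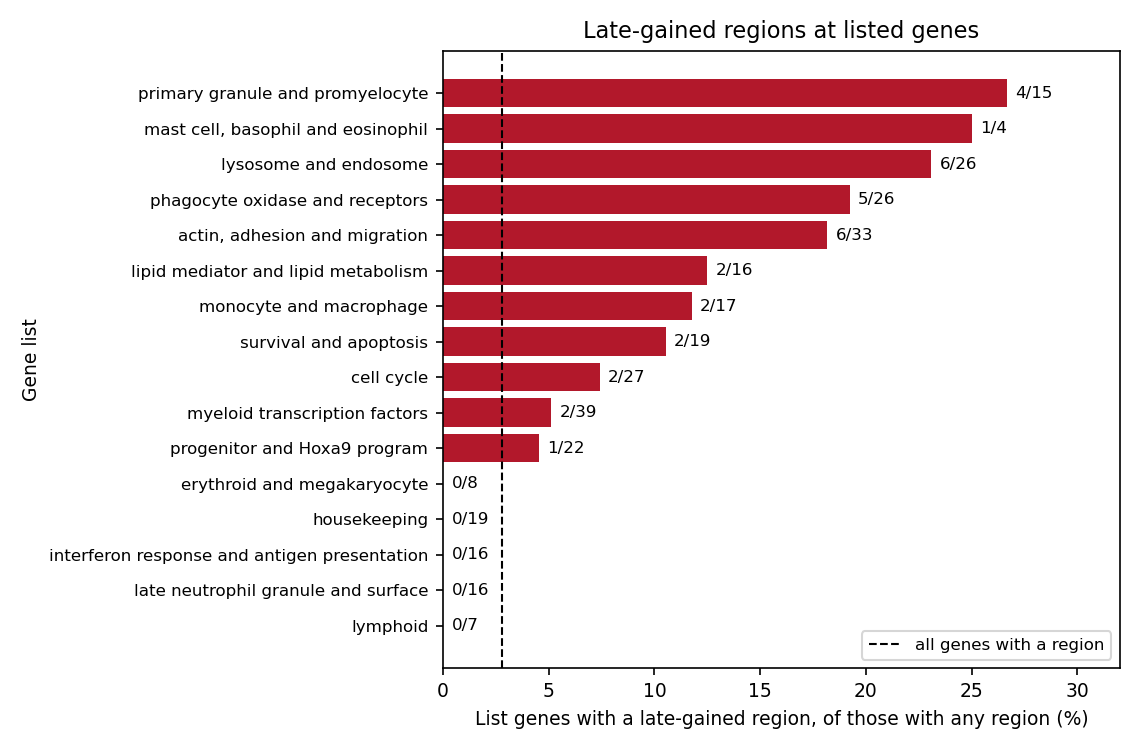
Percentage of the genes of each list with any region that held a late-gained region, with the counts beside the bars; the dashed line is the share over all protein-coding genes with a region, 2.77%. The 11 lists with such a gene run from the progenitor list with 1 of 22 genes to the primary granule list with 4 of 15. All of them lie to the right of the line, but in a list as short as the progenitor list a single such gene is enough for that. Over all lists the share is 11.1%, and 5 lists have none.

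**Figure D2:**
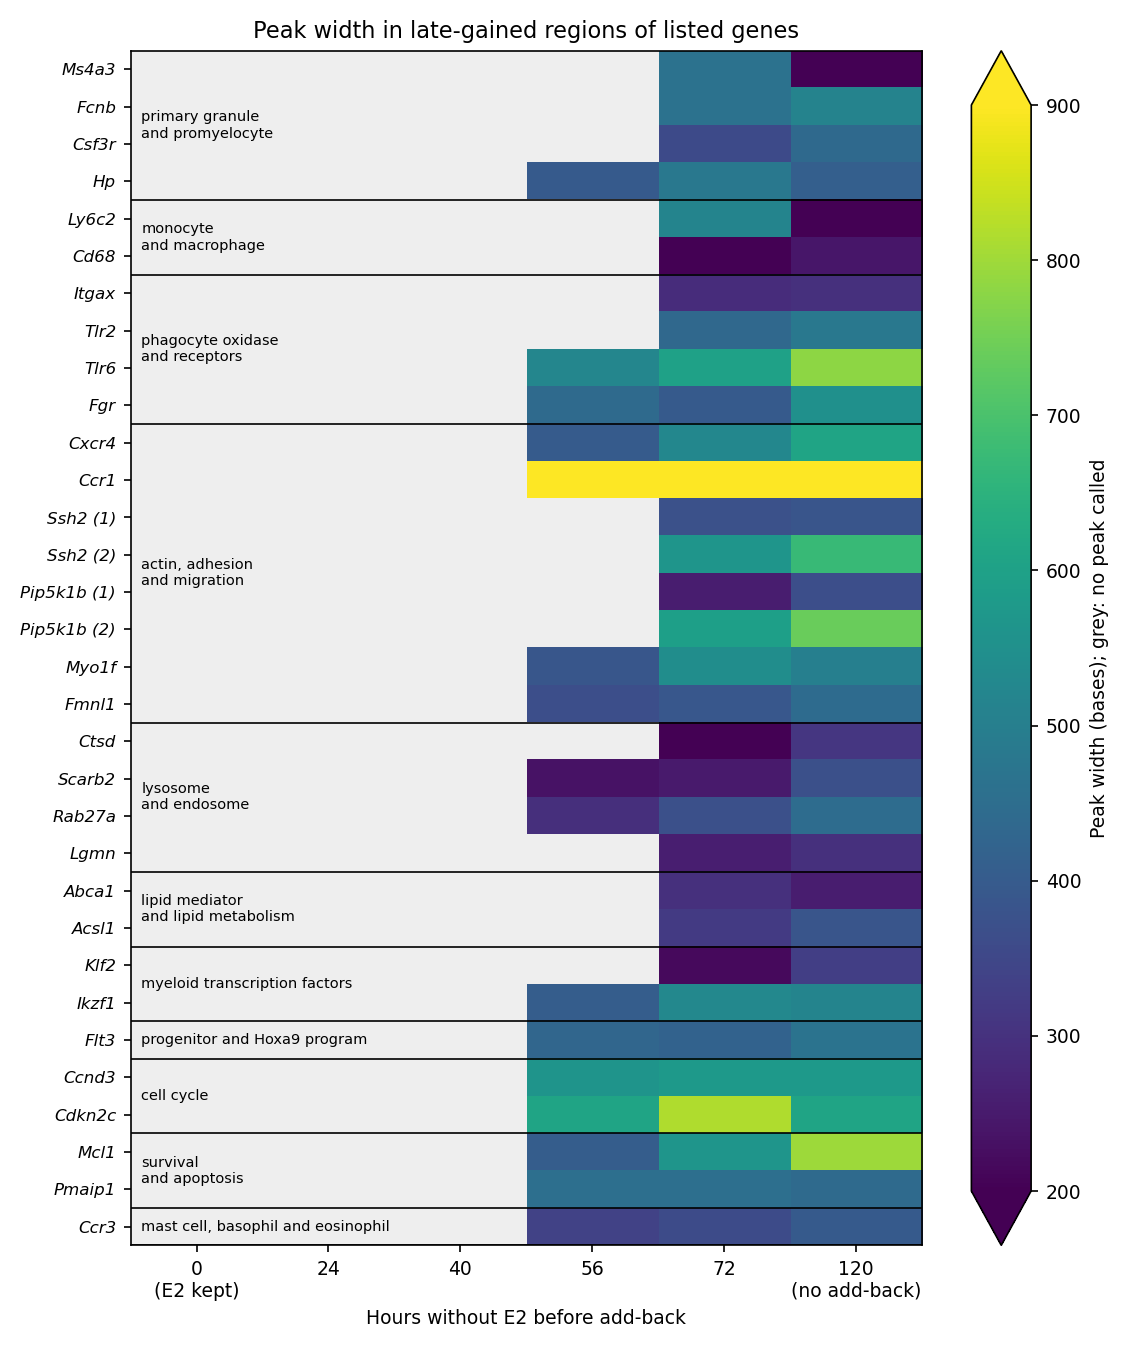
Peak width in bases (colour) at 32 of the late-gained regions of listed genes, in rows, in the 6 lists from 0 h to 120 h without E2, in columns; grey means that no peak was called. The first 3 columns are empty by the way the regions were chosen, 16 rows are filled from 56 h on, and Ms4a3 and Ly6c2 turn darker, that is narrower, at 120 h.

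Of the 10 late-gained regions widest at 120 h, 7 covered a gene start that had a promoter window. Those at Klf16 and Cemip2 also overlapped a boundary of their gene, without such a start. At 120 h the widest peak covered the start of Ptma, which encodes prothymosin alpha, with 1505 bases at 120 h and 1432 bases at 72 h and no peak at 56 h. Zfp36 encodes an RNA-binding protein that speeds the decay of cytokine mRNAs, and its region 1846 bases upstream was 1319 bases wide at 120 h and 322 bases at 72 h. Cdca3, a cell division gene, had peaks of 1335, 1410 and 1257 bases at 56, 72 and 120 h. Pdzd8, a protein of membrane contact sites, had a region over its start with 1139, 1071 and 1153 bases and another 4539 bases upstream with 644, 619 and 727 bases. Ino80, the ATPase of a chromatin remodelling complex, had 1081, 1084 and 1047 bases, and Arrdc3, an arrestin-related adaptor, 868, 961 and 1007 bases. The rest of the 10 widest at 120 h were Cemip2, Klf16, Chka and AB124611, with 944 to 1222 bases. Tmem164, with 746 bases at 120 h and 1105 bases at 72 h, was among the widest at 72 h. Mtus1, which encodes microtubule-binding proteins, and Incenp, a subunit of the chromosomal passenger complex, were the remaining genes with 2 late-gained regions, so that 285 genes had 1 and 5 genes had 2. The 2 Incenp regions lay over 30 kb outside the gene, with peaks of 598 and 449 bases at 120 h, the narrower of them over a start of Gm36913, and those of Mtus1 lay inside it, with 438 and 420 bases.

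The call at 56 h divided the set. A peak was present at 56 h in 129 of the 330 regions (39.1%, 34.0 to 44.5), while 201 were first called at 72 h. That call is part of how the regions were chosen and is a description. Regions called at 56 h had wider peaks later on, with medians of 467 bases at 120 h and 417 bases at 72 h, against 400 and 320 bases for those not called at 56 h. Their own median at 56 h was 395 bases. Widths come from the same lists as the calls, and they too are given as a description. For all 330 the medians were 424 bases at 120 h (quartiles 317 and 562) and 356.5 bases at 72 h (270.5 and 471.5). These peaks were narrow for their lists: the median late-gained peak stood at the percentile 16.1, 12.5 and 21.6 of all peaks in the 56, 72 and 120 h lists. In the early-gained regions, the 491 absent at 0 h and called at 40, 56, 72 and 120 h, with or without 24 h, the medians were 564, 576 and 556 bases and the percentiles 42.8, 46.5 and 45.1. The 458 regions called at 120 h alone had a median of 342 bases.

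**Figure D3:**
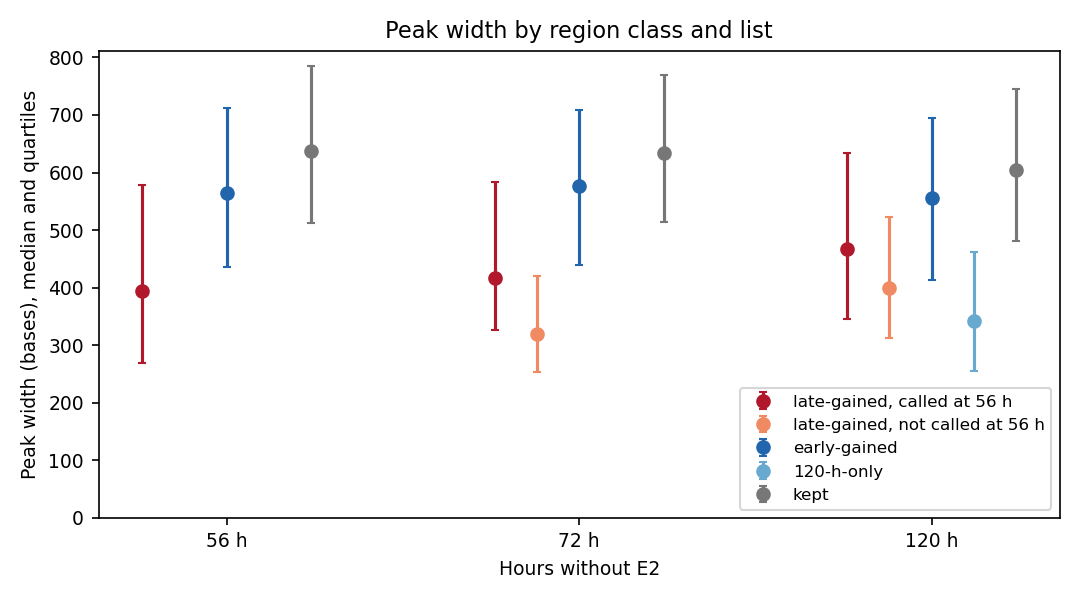
Median peak width in bases (points) with quartiles (bars) at 56, 72 and 120 h without E2, for late-gained regions called and not called at 56 h, early-gained regions, regions called at 120 h alone and kept regions (called at 0 h and 120 h). At 120 h the late-gained medians of 467 and 400 bases lie between 342 bases for the 120-h-only regions and 556 bases for the early-gained ones.

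In most late-gained regions the peak of the 120 h list, made without add-back, was the wider one. The rule asks for peaks at the longer withdrawals and none at the shorter ones, and widths come from the same lists, so these shares are descriptions without a test. The peak was wider at 120 h than at 72 h in 228 regions (69.1%, 63.9 to 73.8), narrower in 98 and equal in 4. Of all 7082 regions called in both lists, 37.8% were wider at 120 h, of the early-gained regions 41.5% and of the kept regions 35.9%. The median change, 120 h minus 72 h, was 43 bases for late-gained, -13 bases for early-gained and -22 bases for kept regions. In 108 late-gained regions the peak was at least 25% wider at 120 h, as at Zfp36, Mcl1, Tlr6 and Ctsd. In 25 it was at least 25% narrower, as at Ms4a3, Ly6c2 and Tmem164. Among regions under 450 bases at 72 h the shares were 74.6% for late-gained and 52.2% for early-gained.

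The same shares were taken by position and by the call at 56 h, again as descriptions. Away from gene boundaries 74.1% of late-gained and 48.0% of early-gained regions were wider at 120 h, and at gene boundaries 49.3% and 38.1% were. Of late-gained regions called at 56 h 57.4% were wider at 120 h, and of those not called at 56 h 76.6% were. The 72 h group had received E2 again for 48 h and the 120 h group had not, so time without E2 and add-back cannot be told apart here.

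**Figure D4:**
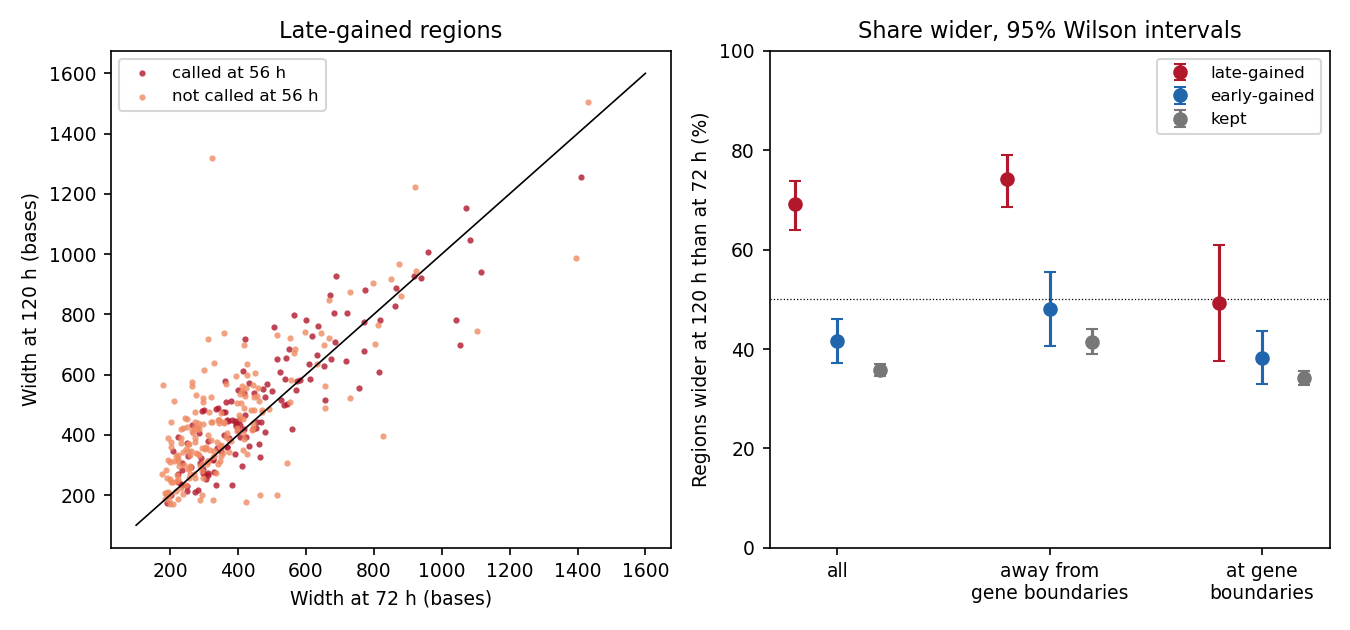
Left, peak width at 120 h against 72 h in bases for the 330 late-gained regions, with the line of equal width; 228 points lie above it. Right, percentage of regions wider at 120 h than at 72 h with 95% Wilson intervals, for late-gained, early-gained and kept regions, for all of them and by position; the late-gained share is 74.1% away from gene boundaries and 49.3% at them.

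The peaks of a late-gained region at 72 h and 120 h lay in the same union region by the rule, so some overlap was built in. Midpoints at 120 h and 72 h lay a median of 29 bases apart, and in 220 of 330 regions within 50 bases. In early-gained regions the median was 26 bases. The largest late-gained offset was 451.5 bases, at Zfp36. The narrower peak of each pair shared a median of 100% of its length with the wider one, and at least 61.2%. This measure is 100% wherever the narrower peak lies within the wider one, whatever their widths. Widths at the 2 times went together (Pearson r = 0.82 over 330 regions of the same 2 lists, a description). The same r was 0.86 for early-gained and 0.88 for kept regions.

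With all peaks of each list kept, most late-gained regions lay away from the ends of protein-coding genes. The start or end of such a gene was within 1000 bases, here called a gene boundary, in 67 of 330 (20.3%, 16.3 to 24.97). Over all union regions the share was 49.6%. Early-gained regions had 65.2%, a difference of -44.9 points (-50.6 to -38.5), and kept regions 74.8% (-54.5 points, -58.6 to -49.7). Lost regions, called at 0 h and not at 120 h, had 30.6% (-10.3 points, -14.5 to -5.53), and regions called at 120 h alone had 9.61% (10.7 points, 5.68 to 15.9). Late-gained regions thus stood between the early-gained and the 120-h-only ones, and their own parts followed the same order, with 28.7% for those called at 56 h and 14.9% for those not (difference 13.8 points, 4.73 to 23.1). By their definitions the number of lists that must call a region falls in the same order, and its part in these shares was not tested.

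Peak width moved with position. Among regions under 450 bases wide at 120 h the boundary share was 13.5% for late-gained, 48.1% for early-gained and 7.58% for 120-h-only regions. Among wider ones it was 29.7%, 73.6% and 14.8%. When each list was limited to peaks at or above its own median width, 195 regions met the same rule, 63.6% of them lay at a gene boundary, and the difference from early-gained regions was -15.1 points (-23.3 to -6.87). The limits were 839, 768 and 696 bases at 0, 24 and 40 h, but 594 and 581 bases at 72 and 120 h. Earlier peaks under the higher limits were thus dropped, and regions that held them could newly meet the rule. The upper quartile of the 330 at 120 h, 562 bases, was below its limit, so most of the 195 were other regions. The 63.6% is therefore not the boundary share of the 330 without their narrow peaks.

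**Figure D5:**
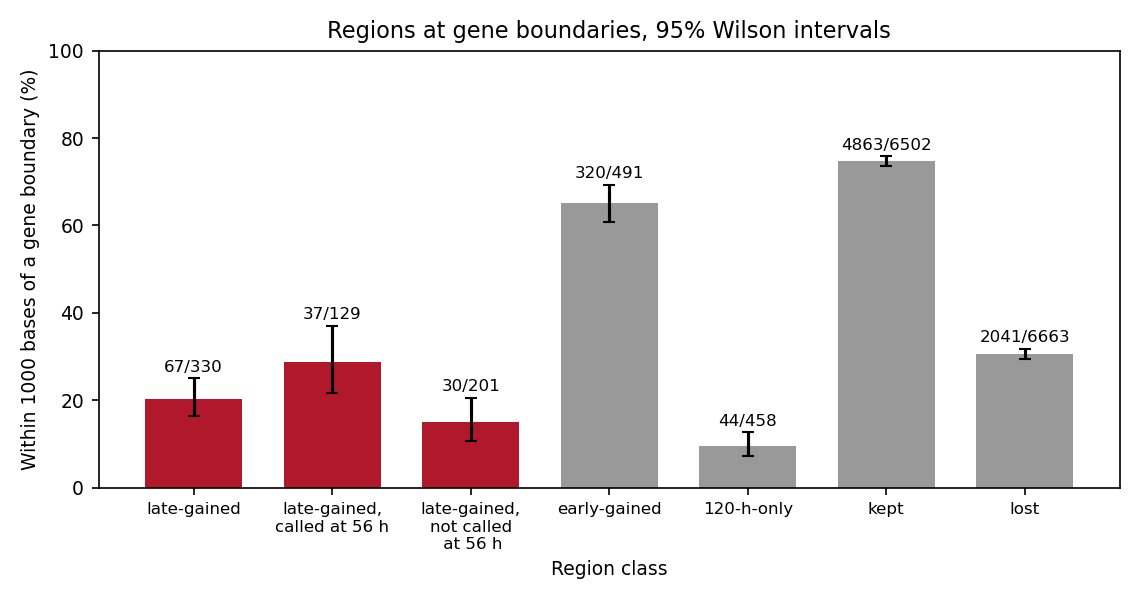
Percentage of regions at a gene boundary (1000 bases), by region class, with 95% Wilson intervals and counts above the bars. The late-gained bar stands at 20.3%, below early-gained (65.2%), kept (74.8%) and lost regions (30.6%) and above the 120-h-only regions (9.61%).

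By gene, 179 late-gained regions (54.2%) lay inside a protein-coding gene, against 80.2% of early-gained and 50.9% of 120-h-only regions. The difference from early-gained regions was -26.0 points (-32.3 to -19.5) and that from 120-h-only regions 3.37 points (-3.69 to 10.4). A further 53 lay upstream of the nearest gene within 50 kb, 36 downstream and 27 beside a gene whose strand was not looked up, and 35 lay over 50 kb from any. Gene starts that had a promoter window were inside 51 regions. Starts without one, as on chromosome 18, could not be counted.

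The neighbours of the gained classes were compared next. Another gained region lay within 50 kb of 20.6% of late-gained regions, against 18.7% of early-gained and 24.2% of 120-h-only ones, and the intervals of both differences included 0. A lost region lay within 50 kb of 47.0%, 47.0% and 46.3% of the same 3 classes. The gene to which a late-gained region was assigned held a lost region in 39.0% of cases, against 29.8% for early-gained regions (difference 9.18 points, 2.27 to 16.1) and 41.1% for 120-h-only ones. Of the 290 genes with a late-gained region, 114 (39.3%) also had a lost one, among them Flt3, Abca1 and Ccnd3, against 43.6% of all genes with any region. A 120-h-only region was present at 17 (5.86%), among them Csf3r, Ctsd and Rab27a, against 3.67% of all genes with any region. An early-gained region was present at 9 (3.10%), among them Ikzf1, Ssh2, Scarb2 and Mtus1, against 4.36%. These shares were not tested against each other. There were 11 pairs of late-gained regions within 50 kb of each other, including those at Stab1 and Nisch and those at Kctd12 and Acod1, which were named after their values were seen.

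Chromosome 19 carried 27 of the 330 regions (8.18%), against 3.26% of early-gained, 3.28% of 120-h-only, 3.75% of kept and 3.50% of all union regions. The difference from early-gained regions was 4.92 points (1.74 to 8.60). Rows of chromosomes 18 and 19 were repeated in the lists, and together these chromosomes carried 41 of the 330 regions (12.4%). The same share was 4.28% of early-gained, 5.68% of 120-h-only, 6.55% of kept and 6.26% of all union regions. Chromosome 19 carries Ms4a3, Pip5k1b, Pdzd8, Incenp, Cemip2 and Chka. The part of the repeated rows in these shares was not tested.

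Letters were counted over the full length of every promoter window that a region overlapped. Some regions covered only part of a window, down to 5 bases, so some of the letters lay outside the regions. Late-gained regions overlapped 61 windows, some of them overlapping each other, in 53 regions. The GC box was present in 62.3% of them, against 32% of the 50 windows of 120-h-only regions (difference 30.3 points, 11.6 to 46.1), 72.9% of the 402 early-gained windows and 35.7% of all 32851 windows. GAGGAA was present in 26.2%, against 60% for 120-h-only regions (difference -33.8 points, -49.3 to -15.3), 24.9% for early-gained regions and 28.3% of all windows. Within the late-gained set, GAGGAA was found in 5 of 35 windows of regions called at 56 h (14.3%) and in 11 of 26 not called at 56 h (42.3%), a difference of -28.0 points (-48.4 to -5.47). The windows were not independent. Overlapping windows of Ly6c2 hold the same GAGGAA and are counted separately among the 11, and the identical window of Cpne1 and Rbm12 is counted for each gene among the 35. This split was added after the data were seen and is a description. The C/EBP letters were in 16.4% of late-gained windows, against 20% for 120-h-only, 8.71% for early-gained and 10.8% of all windows, and of these 3 differences each interval included 0. Windows of kept regions held them in 7.08%, a difference of 9.32 points (2.05 to 20.6). RUNX letters were in 18.03% and 16.8% of late-gained and all windows, IRF in 9.84% and 8.56%, and AP-1 in 4.92% and 7.81%. The HOX with PBX letters were in 2 of 61 late-gained windows (3.28%), against 0 of 402 early-gained windows (difference 3.28 points, 0.722 to 11.2), 8% of 120-h-only, 0.654% of kept (2.63 points, 0.239 to 10.5) and 3.22% of all windows. Base composition moved with these shares: windows called at 56 h had a median GC content of 62.7% and 23 CpG, those not called at 56 h 54.2% and 9.5 CpG. The medians were 63.0% and 25 CpG for early-gained and 52.7% and 5.5 CpG for 120-h-only windows. In all 35 motif differences were computed, with intervals not adjusted for their number.

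The regions next to the limits of the choice were as follows. The late-gained region nearest to a peak of an earlier list was the one at Ctsd, at a gap of 733 bases, followed by chr1:64301300-64301861, with no gene within 50 kb, at 864 bases and Arhgef1, a guanine nucleotide exchange factor, at 920 bases. The median gap was 16592.5 bases, and 4 regions had an earlier peak within 1000 bases. On the other side, 341 regions were called at 72 h and 120 h and in a single earlier list, 200 of them at 40 h, 54 at 24 h and 87 at 0 h. Those with the least overlap were Dmwd, which shared 160 bases with a 40 h peak, Creb5, which shared 162 bases with a 0 h peak, and Btbd16, which shared 183 bases with a 40 h peak.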

How the data were processed

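ATAC-seq was run on 12 libraries in 6 groups, and each group had 1 peak list. The deposited lists give peak positions without scores, so other measures (width, overlap) were derived from the authors' coordinates. The submitters' processing notes name BWA, MACS2 2.0 and STAR 2.5, with no role for each, and the build mm9. Of the peaks, 47.5% to 62.3% held a GRCm38 gene start, against 0.714% to 1.85% after 4 shifts of the peaks, so GRCm38.p6 was used. The sources used here give no depth.

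Exact duplicate rows (115 to 2530 per list) and intervals over 10 kb (1 to 16) were dropped and overlapping rows merged. Those rows lay on chromosomes 18 and 19. Lists were merged into union regions, and a list called a region on an overlap of 1 base. Each region went to an overlapping protein-coding gene, otherwise to the nearest within 50 kb. Gene positions came from RefSeq (GRCm38.p6). Promoter windows on chromosome 18 were not used here, and distal sequence was not analysed here.

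The members and the 16 gene lists (427 genes, 423 found in the gene table) were chosen with earlier results of these data known. Ssh2 and Pip5k1b had already been named in those results. Named genes are the listed genes with a late-gained region, genes with 2 of them, those of the 10 widest peaks at 120 h and the 5 widest at 72 h, and 3 regions on either side of the rule. A few genes taken by this rule are not reported here, and they remain in the counts. Shares have Wilson and differences Newcombe intervals (95%), and no p-value was computed because each group had 1 list. Alternatives covered overlap, widths, chromosomes, windows and distances. Width classes, the wider-at-120-h settings and the motif split by the 56 h call were added after seeing the data. The functions were tested on simulated data. Software was matplotlib 3.10.9, pandas 2.3.3, scipy 1.17.1, numpy 2.4.6 and Python 3.11.15.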

Additional observations from a re-analysis of the deposited data

How the results depend on the processing

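Of 45 alternative values, 30 stayed within the limits set for a change and 15 moved. No difference changed its sign. The boundary share passed from a minority to a majority under a single setting, the limit on peak width. Most regions under that limit were not among the 330. The share called at 56 h also passed from a minority to a majority, under the settings given below. The 330 regions became 195 with only peaks no narrower than the median of their list, and 214 without peaks under 300 bases. With every list shortened to its widest peaks, as many as the shortest list holds, there were 447. Absence asked of the 0 h and 24 h lists alone gave 530, and a required call at 56 h gave 129. The share called at 56 h, 39.1%, became 55.9% with only the peaks no narrower than the median, 65.3% with every list shortened to its widest peaks, and 56.8% when absence was asked of 0 h and 24 h alone. The boundary share, 20.3%, became 27.3% with a window of 2500 bases and 63.6% with only the peaks no narrower than the median. Regions called at 56 h had median widths of 467 bases at 120 h and 417 bases at 72 h, and 57.4% of them were wider at 120 h. That share, 69.1% in all, was 74.1% away from gene boundaries, 74.6% under 450 bases at 72 h and 74.2% with widths divided by the median width of their list. Without chromosomes 18 and 19, 289 regions remained and 69.6% were wider at 120 h. The causes were not tested. Counting a peak within 200 bases as a call gave 330 regions, and within 1000 bases 327.

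Genes assigned within 20000 and 100000 bases numbered 258 and 305, in place of 290. No paired analysis was possible because the 2 libraries of a group share 1 list, and leaving out a library was not run for the same reason. Depth was unknown, so a region without a call may still have been open below the threshold of the peak caller, and the lists differed in length, from 7987 to 13165 peaks.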

Other observations

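Beside the genes of the lists, several pairs of late-gained regions lay close together and were assigned to different genes. They are described here after their values were seen. Regions assigned to Cdh23, a cadherin, and Vsir, an immune checkpoint receptor of myeloid and T cells, were 4664 bases apart on chromosome 10. The first lay inside Cdh23, 41321 bases from its nearest boundary, but only 2456 bases from a boundary of another gene. Its assignment to Cdh23 thus came from overlap alone. Regions at Zfp36 and Med29, a subunit of the Mediator complex, were 3660 bases apart on chromosome 7. Those at Ier2, an immediate early gene, and Nfix, a transcription factor of the nuclear factor I family, were 43926 bases apart on chromosome 8, and those at Ccdc88b and Prdx5, a peroxiredoxin, 24403 bases apart on chromosome 19. Another late-gained region lay within 50 kb of 6.67% of late-gained regions (4.44 to 9.89), against 4.68% of early-gained regions, with a difference of 1.98 points (-1.18 to 5.55) whose interval included 0.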
